A study of Homo sapiens with 39 samples.

Results

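The 9 genes described here, H2AFY, CTNNB1, MED24, STRAP, PICALM, CASP8, GNAS, ATG7 and BCOR, are known from work on the S34F mutation of the splicing factor U2AF1 as transcripts whose exon use changes with that mutation. They were taken by symbol, 9 of the 21530 symbols in the polysome table and of the 26334 in the RNA immunoprecipitation (RIP) tables, and by gene name in 3 lists of U2AF1 contacts. The deposited tables hold 1 value per gene, so exon use itself was not measured. What could be measured was the amount of each transcript, its place in the polysome gradient, its recovery with U2AF1 and the position of U2AF1 contacts on it.

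The series holds 39 samples. Human bronchial epithelial cells (HBEC) were used as 3 lines, wild-type for U2AF1 (WT), S34F mutant (S34F) and Frame Shift (FS). The labels do not say on which allele the S34F mutation or the frame shift lies, or how the lines were derived, and each genotype is 1 line. Each line gave 8 RNA-seq libraries from a polysome gradient, which separates mRNAs by the number of ribosomes they carry: monosomes (1 ribosome), 6 fractions of 2 to 7 ribosomes and a fraction of 8 to 10 (24 libraries). Each line also gave 3 RIP libraries, 1 of the U2AF1 precipitate (IP), 1 of a control immunoglobulin precipitate (IgG) and 1 of cytosolic RNA (Cytosol). PAR-CLIP, in which a protein is crosslinked to RNA and its contacts are read from T-to-C conversions, was made in Flp-In-293 cells, a derivative of the HEK 293 line, carrying FLAG-HA tagged WT or S34F U2AF1. Its 6 samples gave 3 lists of contact clusters (WT chromatin, WT cytoplasm and S34F cytoplasm), each pooling 2 replicates, so these lists have no replicate error. The tagged protein adds to the U2AF1 that Flp-In-293 cells already make.

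U2AF1 is the smaller subunit of the U2 auxiliary factor, which binds the end of an intron when an exon is to be joined. Its partner U2AF2 binds the pyrimidine-rich tract, and U2AF1 contacts the AG that closes the intron and the bases around it. The S34F change lies in a zinc finger of U2AF1 and is known to alter the preference for the base just before this AG, with more use of exons that follow CAG and less of exons that follow TAG. It is a recurrent mutation in myeloid neoplasms and lung adenocarcinoma.

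Polysome libraries held 2440145 to 13367574 counts and RIP libraries 2582141 to 29769968. Levels are given in CPM, counts scaled to a library's total. All 9 airway basal epithelial marker genes averaged 1 CPM or more in Cytosol, with a summed level of 24175.6 to 32437.7 CPM, while ciliated, secretory, fibroblast, blood and endothelial lists summed to at most 68.7 CPM there. In polysome libraries the basal list summed to 8525.7 to 20773.0 CPM, the blood list to 79.5 to 378.9 and each other list to at most 41.0. U2AF1 mRNA had a median of 33.9 CPM over the WT gradient, 24.9 over S34F and 55.5 over FS, and 53.9, 21.4 and 54.7 CPM in the 3 Cytosol libraries. Gene counts do not tell the alleles apart, so the labelled genotypes were not checked.

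The sequences below show, for each gene, the 3-prime splice junction cluster with most reads in WT chromatin, the place where U2AF1 is known to act. Clusters in untranslated exons longer than 30 bases are not shown. This leaves out GNAS clusters of 258 and 49 reads, both above the one printed. Each is written 5′ to 3′ on the transcript strand as in the authors' list, whose genome build is not given in the sources used here. Gene positions in the RIP tables start more than 10000 bases from the GRCh38 ones for all 9 genes. The first CAG or TAG is in capitals.
H2AFY, chr5:134681700-134681752, minus strand, 53 reads: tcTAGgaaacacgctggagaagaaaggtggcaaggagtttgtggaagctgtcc
CTNNB1, chr3:41274811-41274867, plus strand, 55 reads: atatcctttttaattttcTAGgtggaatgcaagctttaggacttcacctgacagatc
MED24, chr17:38188299-38188359, minus strand, 380 reads: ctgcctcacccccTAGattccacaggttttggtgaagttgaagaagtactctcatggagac
STRAP, chr12:16052820-16052866, plus strand, 137 reads: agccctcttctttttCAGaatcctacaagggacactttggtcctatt
PICALM, chr11:85692793-85692835, minus strand, 248 reads: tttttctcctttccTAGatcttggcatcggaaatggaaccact
CASP8, chr2:202146549-202146572, plus strand, 11 reads: gcttCAGggtttgagaatgttttt
GNAS, chr20:57484392-57484413, plus strand, 46 reads: aattttgtttCAGgacctgctt
ATG7, chr3:11421435-11421469, plus strand, 459 reads: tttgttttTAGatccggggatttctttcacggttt
BCOR, chrX:39913270-39913297, minus strand, 161 reads: agaacCAGatgatgaaagtggctatgat
The list annotates these clusters as running from intron into coding sequence, except those of CASP8 and GNAS, which run from intron into a 3-prime UTR. In H2AFY, CTNNB1, MED24, PICALM and ATG7 the first such triplet is TAG, and in STRAP, CASP8, GNAS and BCOR it is CAG. The capitals are matching letters and were not checked against exon ends.

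In WT chromatin each of the 9 genes had at least 1 cluster, and each had at least 1 at a 3-prime splice junction. Of the 15945 genes tested in the polysome table, 51.6% had a cluster in this list and 33.8% had a 3-prime junction cluster. The 9 genes were not matched to the others on level or on number of introns. Together they held 120 clusters and 5627 reads. Of these clusters 26 lay at a 3-prime splice junction, or 21.7% (95% exact binomial interval 14.7 to 30.1), and none at a 5-prime junction, which allows up to 3.03%. Over all 92895 clusters of the list the shares were 17.8% and 1.62%, the former inside the interval of the 9 genes and the latter under the limit. These intervals cover counting error only.

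The genes differed in how much of their chromatin signal lay at these junctions. MED24, a subunit of the Mediator complex that links transcription factors to RNA polymerase II, had 24 clusters, 7 of them at 3-prime junctions, and these held 67.4% of its 1333 reads. PICALM, an adaptor that brings clathrin to the membrane, had 3 such clusters of 12, with 61.1% of 537 reads. ATG7, the E1-like enzyme of the autophagy conjugation systems, had 3 of 23, with 54.0% of 1457 reads. Values were 49.1% of 108 reads for H2AFY, 48.5% of 332 for BCOR, 46.0% of 420 for STRAP, 45.3% of 876 for GNAS and 27.8% of 492 for CTNNB1. CASP8 was lowest, with 15.3% of 72 reads.

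CAG was the more frequent triplet at these junctions, as in the whole list. Of the 26 junction clusters of the 9 genes, 18 held CAG (69.2%) and 12 held TAG (46.2%), with 6 holding both and 2 holding neither. Over all 16534 3-prime junction clusters of WT chromatin, 70.0% held CAG and 47.3% held TAG. Both triplets were searched anywhere in the listed strand, at a median length of 42.5 bases for the 9 genes and 33.0 for the list, and a longer cluster has more room for either.

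**Figure D1:**
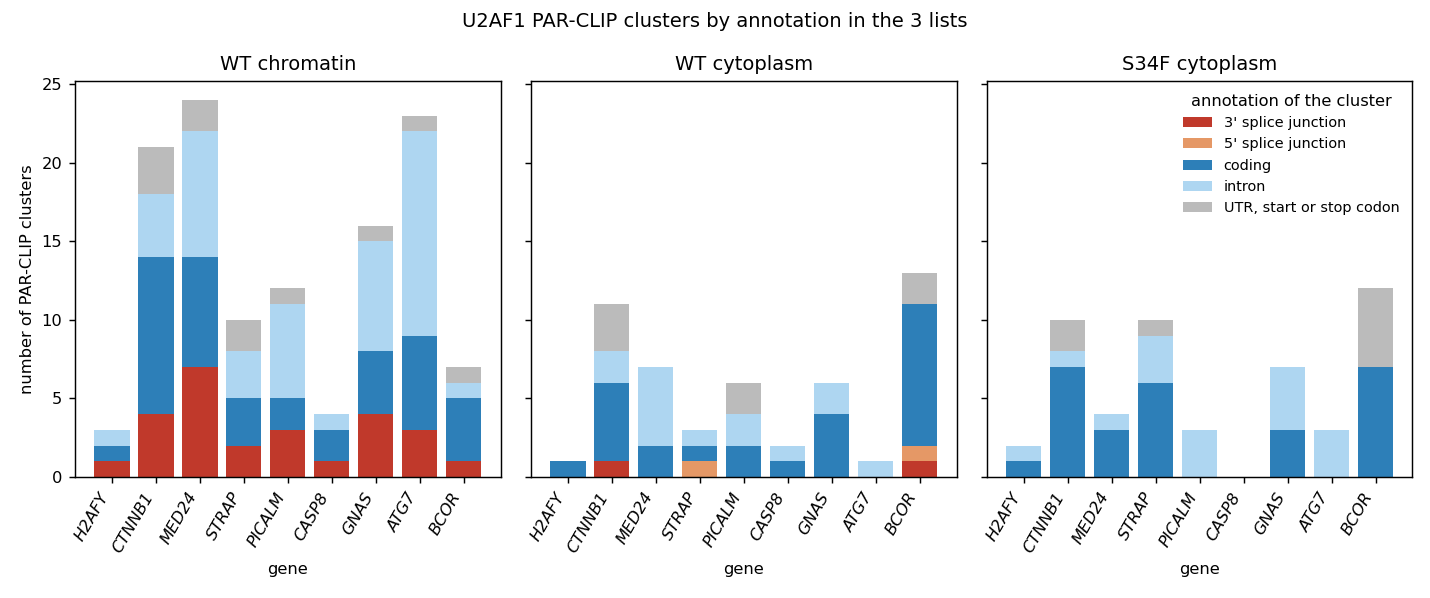
Number of PAR-CLIP clusters (vertical axis) on each of the 9 genes, in the lists for WT chromatin, WT cytoplasm and S34F cytoplasm, stacked by the annotation of the cluster. All 9 genes carry 3-prime junction clusters (red) in chromatin, CTNNB1 and BCOR carry 1 each in WT cytoplasm, and S34F cytoplasm has none.

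In cytoplasm the contacts were mostly within exons. The WT list held 50 clusters on the 9 genes and the S34F list 51, on 8 of them, CASP8 having none. Of all tested genes 42.4% and 38.7% had a cluster in these lists. Coding clusters made up 25 of 50 (50.0%, 35.5 to 64.5) and 27 of 51 (52.9%, 38.5 to 67.1), against 32.5% and 26.5% of all clusters of the 2 lists. BCOR and CTNNB1 held 9 and 5 of these coding clusters in WT and 7 and 7 in S34F. The intervals take clusters of 1 gene as independent. Clusters outside the coding, intron, UTR, codon and junction annotations made up 13.5% and 12.8% of the whole lists, and the 9 genes had 0. Junction clusters of either kind numbered 4 of 50 in WT (8.0%, 2.22 to 19.2) and 0 of 51 in S34F, which allows up to 6.98%. Over the whole lists they made up 4.32% and 4.93%, both within those intervals. Thus 2 of 9 genes had a 3-prime junction cluster in WT cytoplasm and 0 of 9 in S34F cytoplasm, where 4.05% and 5.08% of tested genes had 1.

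The 4 junction clusters of WT cytoplasm are printed because they are the only clusters of these genes annotated at splice junctions outside chromatin. The first CAG or TAG is in capitals at 3-prime junctions and the first AGGT, the bases around the start of many introns, at 5-prime junctions. AGGT occurred in 60.7% of all 5-prime junction clusters of that list.
BCOR, 3-prime junction, chrX:39909236-39909260, minus strand, 13 reads: agtttttgttttaCAGgaagtcccc
CTNNB1, 3-prime junction, chr3:41281287-41281313, plus strand, 10 reads: tgttctggtcctttttggtcgaggagt
BCOR, 5-prime junction, chrX:39914614-39914648, minus strand, 13 reads: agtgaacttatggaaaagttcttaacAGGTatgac
STRAP, 5-prime junction, chr12:16050873-16050962, plus strand, 222 reads: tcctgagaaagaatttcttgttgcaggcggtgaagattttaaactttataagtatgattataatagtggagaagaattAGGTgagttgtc
The first BCOR cluster lies outside the BCOR span of the RIP tables, which starts at 39910498. The CTNNB1 cluster holds neither CAG nor TAG.

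Reads per gene differed between the cytoplasmic lists for STRAP and GNAS. STRAP, a WD-repeat protein known as a partner of the SMN complex and as an inhibitor of TGF-beta signalling, held 265 reads in 3 clusters with WT U2AF1 and 120 reads in 10 clusters with S34F. Scaled to the reads of each list (RPM) that was 503.7 and 182.3. The difference lay in the junction cluster printed above, where 222 WT reads faced an S34F cluster of 12 reads at chr12:16050922-16050950, annotated as coding. The deposited T-to-C conversion fraction of the WT cluster was 0.32, against a median of 0.837 over that list. GNAS, the stimulatory G protein alpha subunit that couples receptors to adenylyl cyclase, held 469.5 RPM with WT and 136.8 with S34F. Its largest contact, at chr20:57480456-57480502 in coding sequence, had 129 reads in WT cytoplasm with a conversion fraction of 0.124. The same place had 27 reads in S34F cytoplasm and 101 in WT chromatin.

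The other genes had fewer reads in the cytoplasmic lists or a smaller ratio. RPM values with WT and S34F were 304.1 and 180.8 for CTNNB1, 319.3 and 185.4 for BCOR, 121.7 and 54.7 for MED24, 89.3 and 36.5 for PICALM, 45.6 and 34.9 for H2AFY, and 13.3 and 31.9 for ATG7. ATG7 was thus the only gene with the higher value in S34F, on 7 and 21 reads. RPM divides by all reads of a list. Clusters outside the coding, intron, UTR, codon and junction annotations held 166762 of 526075 reads in WT and 283910 of 658110 in S34F. In unscaled reads H2AFY had 24 with WT and 23 with S34F. CASP8 had 13 reads in WT and none in S34F. With 1 pooled list per protein there is no replicate check, and none of these differences was tested.

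Most contacts of these genes did not recur between lists. Clusters that overlapped by at least 1 base numbered 10 between WT and S34F cytoplasm, 20.0% of the WT clusters and 19.6% of the S34F ones. They lay on BCOR (4), CTNNB1 (3), GNAS (2) and STRAP (1). WT cytoplasm shared 7 clusters with WT chromatin, 14.0% of the cytoplasmic and 5.83% of the chromatin clusters. For S34F cytoplasm 11 clusters met 12 of chromatin, 21.6% and 10.0%. These shares cover the clusters of these genes only. Overlap over all clusters of the lists was not measured, so whether these shares are low for such lists was not tested. The printed STRAP chromatin cluster chr12:16052820-16052866, with 137 reads, overlapped an S34F cytoplasmic cluster of 6 reads. The latter, at chr12:16052842-16052863, was annotated as coding and not as a junction.

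In cytosolic RNA the 9 genes covered a wide range of levels per length. By median deposited RPKM (reads scaled by gene length and library size) over the 3 Cytosol libraries, H2AFY was highest at 56.2 (45.5 to 68.3), followed by MED24 at 42.4 (15.1 to 44.1), CTNNB1 at 21.7 (18.8 to 26.1) and STRAP at 13.5 (11.7 to 15). GNAS had 5.49 (3.63 to 53.5), ATG7 4.38 (4.3 to 6.81), PICALM 2.91 (2.69 to 2.95), BCOR 0.916 (0.668 to 1.07) and CASP8 0.519 (0.383 to 0.697). The ranges of neighbours in this order overlapped for MED24 and CTNNB1, for STRAP, GNAS and ATG7, and for BCOR and CASP8.

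Along the polysome gradient the 9 genes took different courses. Between monosomes and the 8-10 fraction, 6 of 9 rose (H2AFY, STRAP, MED24, PICALM, BCOR and CTNNB1) and CASP8 fell, while GNAS and ATG7 did not pass the test (edgeR quasi-likelihood test with line as a block, Benjamini-Hochberg adjusted p under 0.05 over 15945 genes). Of all genes tested, 28.3% were called higher and 21.6% lower, 49.9% in all. The median log2 fold change was 1.02 over the 9 genes and 0.08 over all. Over the lists of partner and related genes named below it ran from 0.44 (clathrin coats) to 1.46 (histone H2A variants). A median above that of all genes was thus not particular to the 9 genes, which were not matched to the others on level. When 6, 7 and 8-10 ribosomes were set against 1, 2 and 3, the calls of CTNNB1 (0.09), MED24 (0.28), PICALM (0.18) and BCOR (0.14) were lost, with adjusted p from 0.4 to 0.829. Since each library is scaled to the same total, these are relative levels, and in such bulk libraries fewer cells and less RNA per cell cannot be told apart. The labels do not say whether libraries came from separate cultures, so p-values reflect no more than the scatter of these libraries, genotype included.

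**Figure D2:**
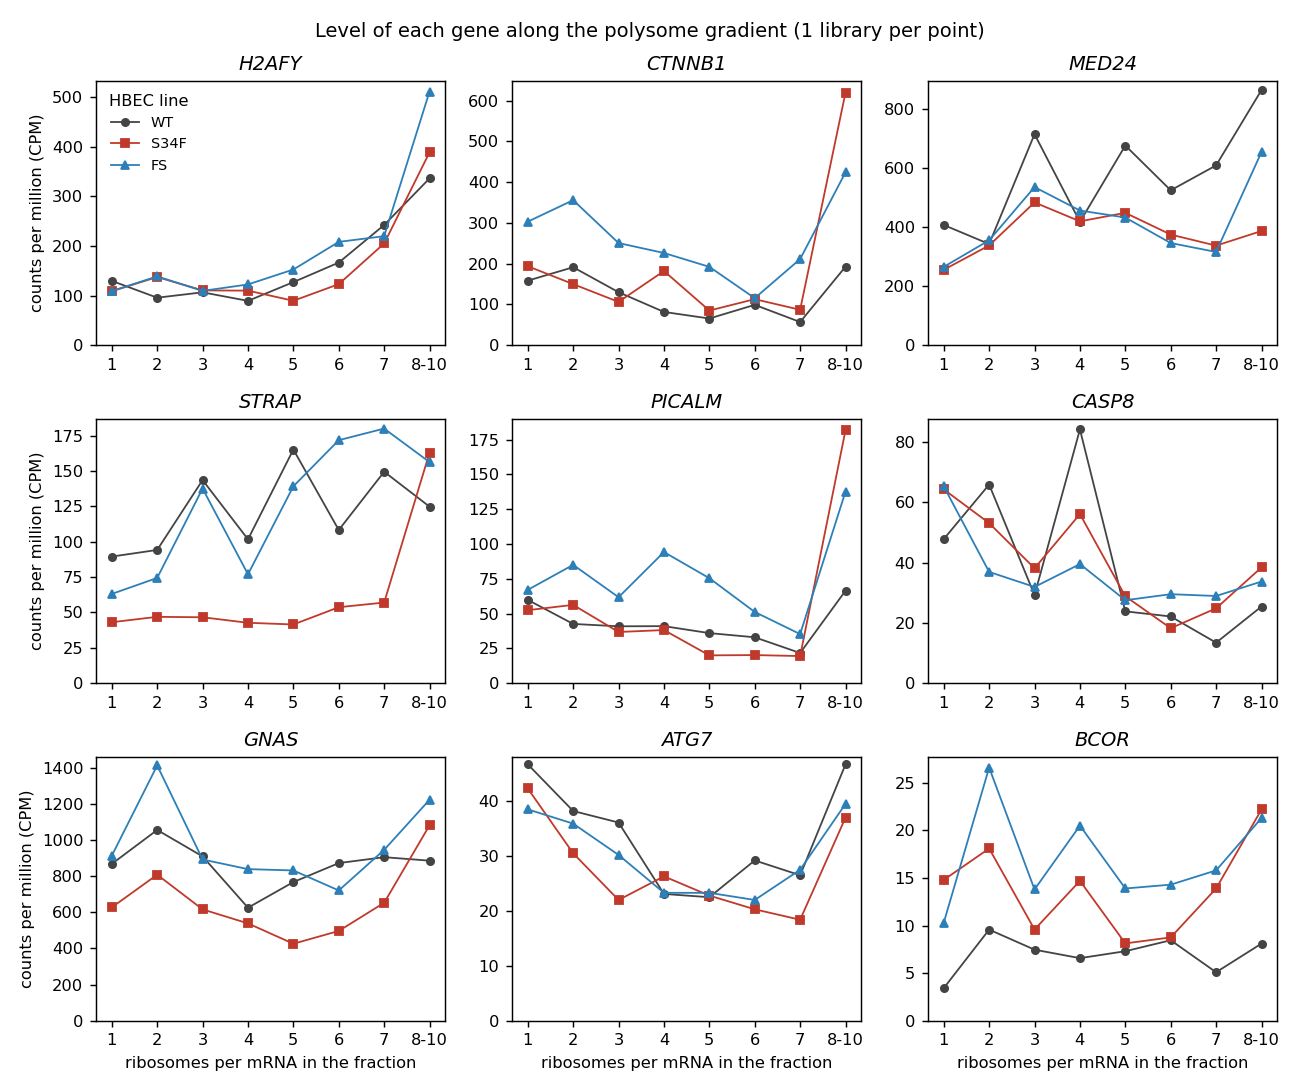
Level of each of the 9 genes in CPM (vertical axis, from 0) along the 8 fractions of the polysome gradient, by ribosomes per mRNA (horizontal axis), in the WT, S34F and FS lines, with 1 library per point. H2AFY climbs toward the 8-10 fraction in all 3 lines, CTNNB1 and PICALM dip before a peak there, and STRAP of the S34F line stays between 41.4 and 56.9 CPM until the 8-10 fraction.

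H2AFY encodes the histone variant macroH2A1, whose pre-mRNA carries a pair of mutually exclusive exons. In monosomes it stood at 129.8 CPM in WT, 108.9 in S34F and 109.3 in FS, and in the 8-10 fraction at 336.4, 388.9 and 511.5. The groups did not overlap, and the share of all genes without such overlap was not measured. The log2 fold change was 1.94 ± 0.30 (SE, 3 lines; adjusted p = 5.07e-05 by edgeR), higher than that of 96.5% of genes, and the call was kept under all 8 alternative settings run. At 7 ribosomes H2AFY was already higher than in monosomes, by 1.30 ± 0.30 (adjusted p = 0.00138), in a comparison that called 40.0% of genes, 24.3% higher and 15.7% lower. This comparison shares the monosome libraries with the former. All 6 histone H2A variants tested, H2AFY among them, were called higher in the 8-10 fraction than in monosomes, where 28.3% of all genes were. An example is H2AFX, the variant phosphorylated at DNA breaks, by 1.78 ± 0.41.

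STRAP was the next in size. It stood at 89.4, 43.0 and 63.0 CPM in the WT, S34F and FS monosomes and at 124.7, 162.9 and 156.2 in the 8-10 fraction. The groups did not overlap, again with no share measured over all genes. The log2 fold change was 1.43 ± 0.31 (SE; edgeR adjusted p = 0.000715). Without line as a block the adjusted p was 0.0506. The lines took different paths: in S34F all fractions up to 7 ribosomes lay at 41.4 to 56.9 CPM, whereas WT had reached 149.4 and FS 179.9 at 7 ribosomes. At 7 ribosomes the fold over monosomes was 1.23 ± 0.31 (adjusted p = 0.00297), and 0.96 without the FS line (adjusted p = 0.102). Of 7 tested SMN complex genes, 2 were higher (GEMIN2, 1.59 ± 0.45, and GEMIN5, 0.98 ± 0.31) and GEMIN8 was lower, by -1.36 ± 0.33. That share of higher genes is near the 28.3% of all genes.

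MED24 stood at 406.4, 255.1 and 265.0 CPM in the WT, S34F and FS monosomes and at 862.5, 386.1 and 653.0 in the 8-10 fraction. The S34F value of the 8-10 fraction was below the WT monosome value, so the groups overlapped, but each line was higher in the 8-10 fraction than in its monosomes, and the fold was 1.19 ± 0.35 (SE; edgeR adjusted p = 0.00701). It was 1.02 without the FS line (adjusted p = 0.0711). Of 29 other Mediator genes, 14 were higher and 0 lower, led by MED27 at 1.96 ± 0.36 and MED10 at 1.77 ± 0.36, with a median of 0.85. Of all genes, 28.3% were higher and 21.6% lower. MED24 was also higher at 3 and at 5 ribosomes than in monosomes, by 1.29 ± 0.35 (adjusted p = 0.0122) and 1.08 ± 0.35 (adjusted p = 0.0253), where 13.9% and 26.6% of genes were called in either direction.

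CTNNB1 and PICALM shared a course with a low before a peak. CTNNB1 encodes beta-catenin, which links cadherins to the cytoskeleton and carries the Wnt signal to the nucleus. It stood at 158.4, 193.8 and 303.0 CPM in the WT, S34F and FS monosomes, at 57.0, 87.0 and 211.3 at 7 ribosomes and at 192.7, 619.6 and 424.1 in the 8-10 fraction. In each line the 7-ribosome value was below both others. The 8-10 fraction was higher than 7 ribosomes by 1.70 ± 0.34 (SE; edgeR adjusted p = 0.000586), in a comparison in which 29.0% of genes were called, 14.5% higher. The call was kept under all 7 alternatives run, with 1.34 (adjusted p = 0.0162) without the S34F line. Against monosomes the rise was 0.99 ± 0.33 (adjusted p = 0.0165), and it was lost without the S34F line (0.65, adjusted p = 0.165) and without line as a block (adjusted p = 0.101).

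PICALM stood at 59.8, 52.4 and 67.0 CPM in the WT, S34F and FS monosomes, at 21.6, 19.4 and 35.2 at 7 ribosomes and at 66.4, 181.9 and 137.7 in the 8-10 fraction. The 7-ribosome values lay below all values of the other fractions named, and the share of all genes with such an order was not measured. From 7 ribosomes to the 8-10 fraction PICALM rose by 2.12 ± 0.34 (SE; edgeR adjusted p = 0.000101), kept under all 7 alternatives, with 1.75 (adjusted p = 0.00468) without S34F. From monosomes to 7 ribosomes it fell, with a log2 fold change of -0.94 ± 0.33 (adjusted p = 0.0248). That call was lost when any 1 of the 3 lines was left out (adjusted p = 0.0575 to 0.0827). From monosomes to the 8-10 fraction it rose by 1.18 ± 0.33 (adjusted p = 0.00497), and by 0.82 without S34F (adjusted p = 0.082). The comparisons of 7 ribosomes with monosomes and with the 8-10 fraction, and their alternatives, were added after the profiles had been seen. From 7 ribosomes to the 8-10 fraction H2AFY (0.64, adjusted p = 0.108) and ATG7 (0.57, adjusted p = 0.109) did not pass, but both did without the filter (0.0348 and 0.0427) and with DESeq2 (0.0136 and 0.0325), and H2AFY with RLE scaling (0.0337).

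The partner lists of both genes held called and uncalled genes, in a comparison that called 28.3% of all genes higher and 21.6% lower. Of 18 adherens junction and Wnt genes, 8 were higher and 0 lower in the 8-10 fraction, led by the kinases GSK3B (1.46 ± 0.32) and GSK3A (1.39 ± 0.33) that mark beta-catenin for breakdown. Of 16 clathrin coat genes, 7 were higher, led by the light chain CLTB (1.82 ± 0.37) and the adaptor subunit AP2S1 (1.20 ± 0.40), and EPN1, an endocytic adaptor, was lower by -1.84 ± 0.34. Over the 24 polysome libraries the log2 levels of CTNNB1 and PICALM had the highest correlation among the 36 pairs of the 9 genes, r = 0.853, where the median of pairs was 0.324 and the lowest -0.503. These points share libraries, and the value is a description.

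CASP8, the initiator caspase of death receptor signalling, took the opposite course. It stood at 47.8, 64.3 and 65.3 CPM in the WT, S34F and FS monosomes and at 25.4, 38.4 and 33.7 in the 8-10 fraction. These groups did not overlap, and the share of all genes without overlap was not measured. The fold was -0.74 ± 0.26 (SE; edgeR adjusted p = 0.0204). The call was lost with any 1 line left out (adjusted p = 0.0516 to 0.179), without the block (0.0559) and without the filter on low counts (0.196). At 7 ribosomes, with 13.4, 24.8 and 28.9 CPM, CASP8 was lower than in monosomes by -1.11 ± 0.26 (adjusted p = 0.00183), kept under all 7 alternatives. Of 13 tested death receptor genes, 7 were higher in the 8-10 fraction, where 28.3% of all genes were. They were led by the adaptors FADD (1.67 ± 0.36) and TRADD (1.66 ± 0.41). CFLAR, the caspase-like inhibitor of CASP8, was lower by -1.41 ± 0.30.

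BCOR, the corepressor of the PRC1.1 Polycomb complex, had the fewest counts of the 9 in the gradient. It stood at 3.43, 14.8 and 10.3 CPM in the WT, S34F and FS monosomes and at 8.11, 22.2 and 21.3 in the 8-10 fraction. The groups overlapped, each line being higher in the 8-10 fraction, by 1.02 ± 0.32 (SE; edgeR adjusted p = 0.0117). The call was lost without the WT line (adjusted p = 0.0762), without FS (0.0995) and without the block (0.134), and the whole WT gradient held 395 BCOR counts. Of 9 PRC1.1 genes 4 were higher and 0 lower, where 28.3% and 21.6% of all genes were. They were led by USP7, the deubiquitinase of the complex, at 1.62 ± 0.29 and RING1, a ubiquitin ligase subunit, at 1.51 ± 0.35.

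GNAS and ATG7 were not called between the ends of the gradient, except GNAS without the filter on low counts (0.82, edgeR adjusted p = 0.0282). GNAS stood at 867.4, 627.0 and 912.6 CPM in the WT, S34F and FS monosomes and at 885.3, 1081.0 and 1222.3 in the 8-10 fraction (0.55 ± 0.28, edgeR adjusted p = 0.107). ATG7 stood at 46.7, 42.3 and 38.5 CPM and at 46.7, 37.0 and 39.5 (0.09 ± 0.26, adjusted p = 0.784). Both had lower values in between, ATG7 with 23.1, 26.3 and 23.3 CPM at 4 ribosomes (-0.92 ± 0.26, adjusted p = 0.103), where 0.721% of genes were called. At 2 ribosomes GNAS stood at 1055.1, 807.8 and 1411.7 CPM in the WT, S34F and FS lines (0.50 ± 0.28, edgeR adjusted p = 0.999). These were its highest values in WT and FS, but not in S34F. The partner lists of GNAS and ATG7 moved in both directions in the 8-10 fraction, where 28.3% of all genes were higher and 21.6% lower. Of 13 G protein subunits 5 were higher (GNAI1, 1.96 ± 0.30) and GNA12 was lower (-1.19 ± 0.32). Of 14 autophagy conjugation genes 6 were higher, led by the E2-like enzyme ATG3 (1.85 ± 0.31), and ATG10 (-1.69 ± 0.32) and ATG4D (-1.33 ± 0.35) were lower.

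**Figure D3:**
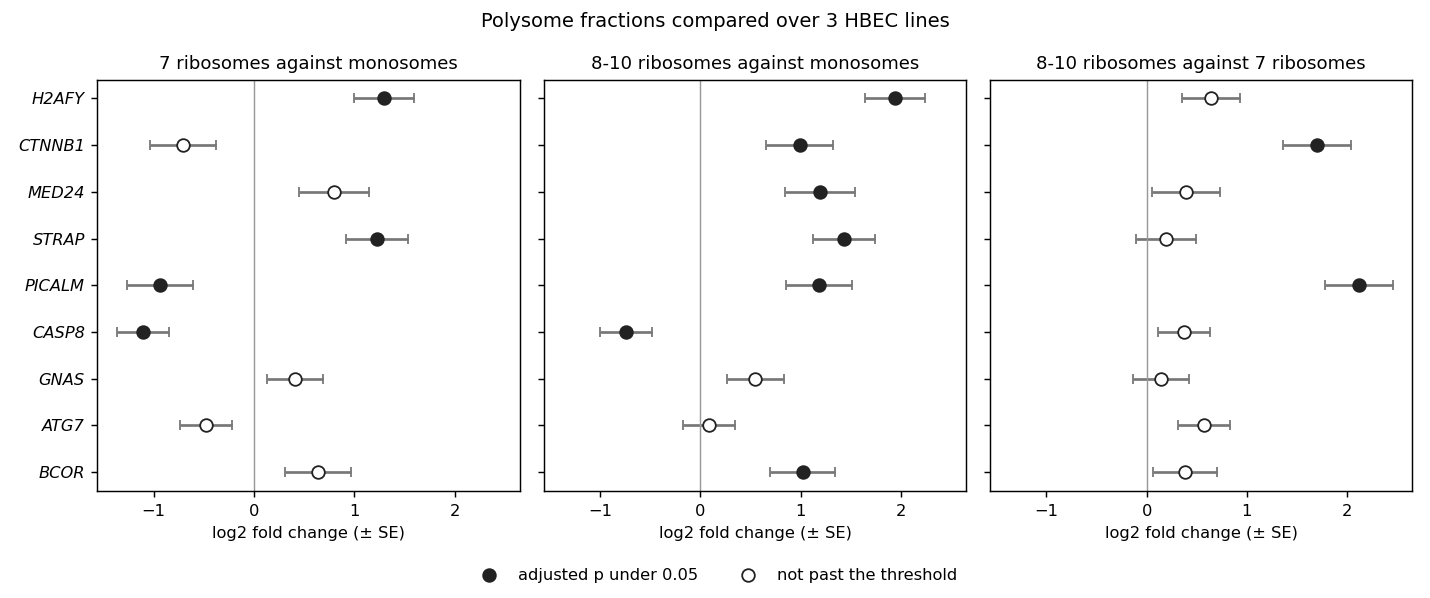
Log2 fold change with its standard error (horizontal axis) of each of the 9 genes between polysome fractions, fitted over 3 lines with edgeR, where filled points passed an adjusted p of 0.05. CTNNB1 and PICALM lie below 0 at 7 ribosomes and are the 2 called between 7 and 8-10 ribosomes in this fit.

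At 7 ribosomes 2 of the 9 were called higher than monosomes (H2AFY and STRAP) and 2 lower (PICALM and CASP8), where 24.3% and 15.7% of all genes were. Scaling by size factors in place of TMM moved the median of all genes in this comparison from -0.02 to -0.16, and CTNNB1 then passed the threshold at -0.84 (adjusted p = 0.0433), as did ATG7 at -0.63 (adjusted p = 0.0379). At 6 ribosomes, where 31.1% of genes were called against monosomes, H2AFY (0.77 ± 0.29) and STRAP (0.99 ± 0.31) were higher and CASP8 (-1.06 ± 0.26) was lower. At 5 ribosomes, where 26.6% of genes were called, MED24 (above) and STRAP (1.01 ± 0.31) were higher and CASP8 (-0.82 ± 0.26) was lower. At 3 ribosomes, where 13.9% were called, MED24 and STRAP (1.03 ± 0.31, edgeR adjusted p = 0.0234) were higher. At 2 ribosomes 0 of the 9 passed the edgeR test, where 0.0502% of genes did. BCOR, with 9.58, 18.1 and 26.6 CPM there, had the largest value at 1.07 ± 0.33 (adjusted p = 0.412).

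The mean position in the gradient was summarised as the CPM-weighted ribosome number over 8 fractions, with 9 for the 8-10 fraction. Its median was 4.87 over the 9501 genes that reached 500 counts in every gradient. H2AFY lay at 5.78 ± 0.15 (SD, 3 lines), above 97.3% of these genes. STRAP followed at 5.32 ± 0.44, PICALM at 5.05 ± 0.58, MED24 at 4.95 ± 0.21, CTNNB1 at 4.93 ± 0.71, BCOR, under the count minimum in WT, at 4.76 ± 0.04, GNAS at 4.70 ± 0.17, ATG7 at 4.50 ± 0.06 and CASP8 at 3.97 ± 0.18, above 13.8% of genes. The wide spread of CTNNB1 and PICALM came with the S34F line, which lay at 5.75 and 5.70, against 4.42 and 4.57 in WT and 4.63 and 4.89 in FS. For STRAP all 3 lines lay apart, at 4.87 in WT, 5.33 in FS and 5.75 in S34F. S34F exceeded WT by 1.33 for CTNNB1, 1.13 for PICALM and 0.88 for STRAP, more than for 97.2%, 94.6% and 89.1% of genes, and was lower for MED24 by -0.42. There is 1 gradient per line, and these differences between lines were not tested.

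For each gene the 2 genes most like it over the 24 polysome libraries were named by Pearson's r of log2(CPM + 1). CASP8 was closest to F2R (0.983) and DBT (0.982), CTNNB1 to HSPA4 (0.969) and IARS2 (0.963), and PICALM to EXOSC10 (0.968) and CAP1 (0.964). H2AFY was closest to HNRNPAB (0.956) and UBE2L3 (0.948), STRAP to RAB5A (0.933) and NRBF2 (0.917), and BCOR to TANC1 (0.916) and PIK3R1 (0.898). Values were lower for GNAS with AFAP1 (0.872) and GCH1 (0.865), for MED24 with P2RX4 (0.862) and SQSTM1 (0.845), and for ATG7 with PIM1 (0.822) and C1QBP (0.813). These libraries share fractions and lines, and each pair was picked as the highest of all genes.

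Between the S34F and WT lines, matched fraction by fraction, STRAP had the lowest ratio of the 9 genes and BCOR the highest. The median STRAP level was 46.6 CPM in S34F (41.4 to 162.9), 116.5 in WT (89.4 to 165.1) and 138.3 in FS (63.0 to 179.9). The mean log2 ratio of S34F to WT (of CPM + 1) was -1.10, lower in 7 of 8 fractions and higher only in the 8-10 fraction (0.38), and without that fraction it was -1.32. A mean of -1 or less was found for 2.28% of genes. The ratio of S34F to FS was -1.07, with 8.11% of genes at -1 or less, while FS and WT differed by -0.04. In Cytosol STRAP differed less between lines, at 74.5 CPM in S34F, 90.1 in WT and 82.4 in FS.

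BCOR had medians of 14.3 CPM in S34F (8.13 to 22.2), 7.39 in WT (3.43 to 9.58) and 15.1 in FS (10.3 to 26.6). The S34F to WT ratio averaged 0.86 and was above 0 in 8 of 8 fractions, where 5.38% of genes were, and 2.25% had a mean of 1 or more. The FS to WT ratio averaged 1.17 and was above 0 in 8 of 8 as well, as for 22.0% of genes, with 10.3% of genes at a mean of 1 or more. In the gradient WT was thus the low line, on 395 counts in all. In Cytosol BCOR stood at 19.5 CPM in WT, 24.1 in S34F and 14.4 in FS, so that WT was not lowest there. CTNNB1 had a mean log2 ratio of FS to WT of 1.12, above 0 in 8 of 8 fractions, and 0.45 for S34F to WT, above 0 in 6 of 8.

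MED24 was lower in S34F than in WT in 7 of 8 fractions, with a mean log2 ratio of -0.54 and its lowest, -1.16, in the 8-10 fraction. FS was lower than WT as well, in 6 of 8 fractions with a mean of -0.43. The S34F to FS ratio of MED24 averaged -0.11, so in the gradient WT was the high line. In Cytosol MED24 stood at 188.2 CPM in S34F, 518.8 in WT and 507.0 in FS. That S34F to WT log2 ratio of -1.46 was lower than for all but 2.52% of genes, and 6.35% of genes lay at -1 or less. GNAS was lower in S34F than in WT in 7 of 8 fractions (mean -0.43). The mean S34F to WT ratios of ATG7 (-0.29), H2AFY (-0.04), PICALM (-0.03) and CASP8 (0.17) lay within 0.5 of 0, where the median of all genes was -0.06. With 1 library per line and fraction, no difference between lines has a replicate check. The comparisons of S34F with WT and of FS with WT share the WT libraries.

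**Figure D4:**
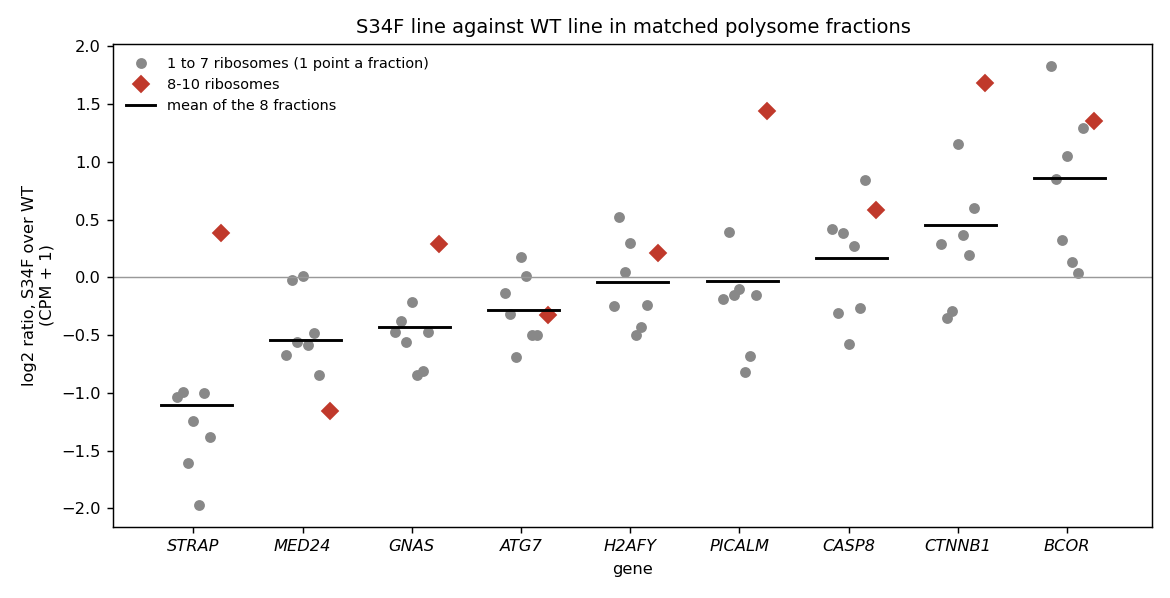
Log2 ratio of S34F to WT level (CPM + 1, vertical axis) of each of the 9 genes in matched polysome fractions, 1 point per fraction, with the 8-10 fraction as a red diamond and the mean of 8 fractions as a bar. STRAP lies at or below -0.99 in the 7 lighter fractions and at 0.38 in the 8-10 fraction, and CTNNB1 and PICALM have their highest ratio in the 8-10 fraction.

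The RIP libraries ask which transcripts are recovered with U2AF1, and none of the 9 genes was called. In the fit over 9 RIP libraries, 0 of 9 were called between IP and IgG, 0 of 9 between IP and Cytosol and 0 of 9 between IgG and Cytosol, where 1.34%, 0.534% and 0.68% of 11612 genes were (edgeR quasi-likelihood test, line as a block, adjusted p under 0.05). At an unadjusted edgeR p under 0.05 there were 0, 1 and 1 of the 9, GNAS in both cases. The share of all genes under that unadjusted threshold was not measured, so these counts are a description. DESeq2 called 0, 0 and 0 of the 9, giving no adjusted p for PICALM, CASP8 and BCOR between IP and Cytosol. The 3 comparisons share libraries. In data simulated for IP against IgG over 11254 genes, a log2 change of 2 was called in 31.6% of changed genes. A log2 change of 1 was called in 1.04%, so over genes in general most changes of either size would be missed. The changed genes were drawn from all those tested, and the rate for each of the 9 genes was not measured. Their IP to IgG SE ran from 0.20 for MED24 and 0.22 for H2AFY and CTNNB1 to 1.41 for CASP8. The median IP to IgG log2 fold change was 0.20 over the 9 genes, 8 of them above 0, and 0.03 over all genes, 5967 of 11612 of them above 0.

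**Figure D5:**
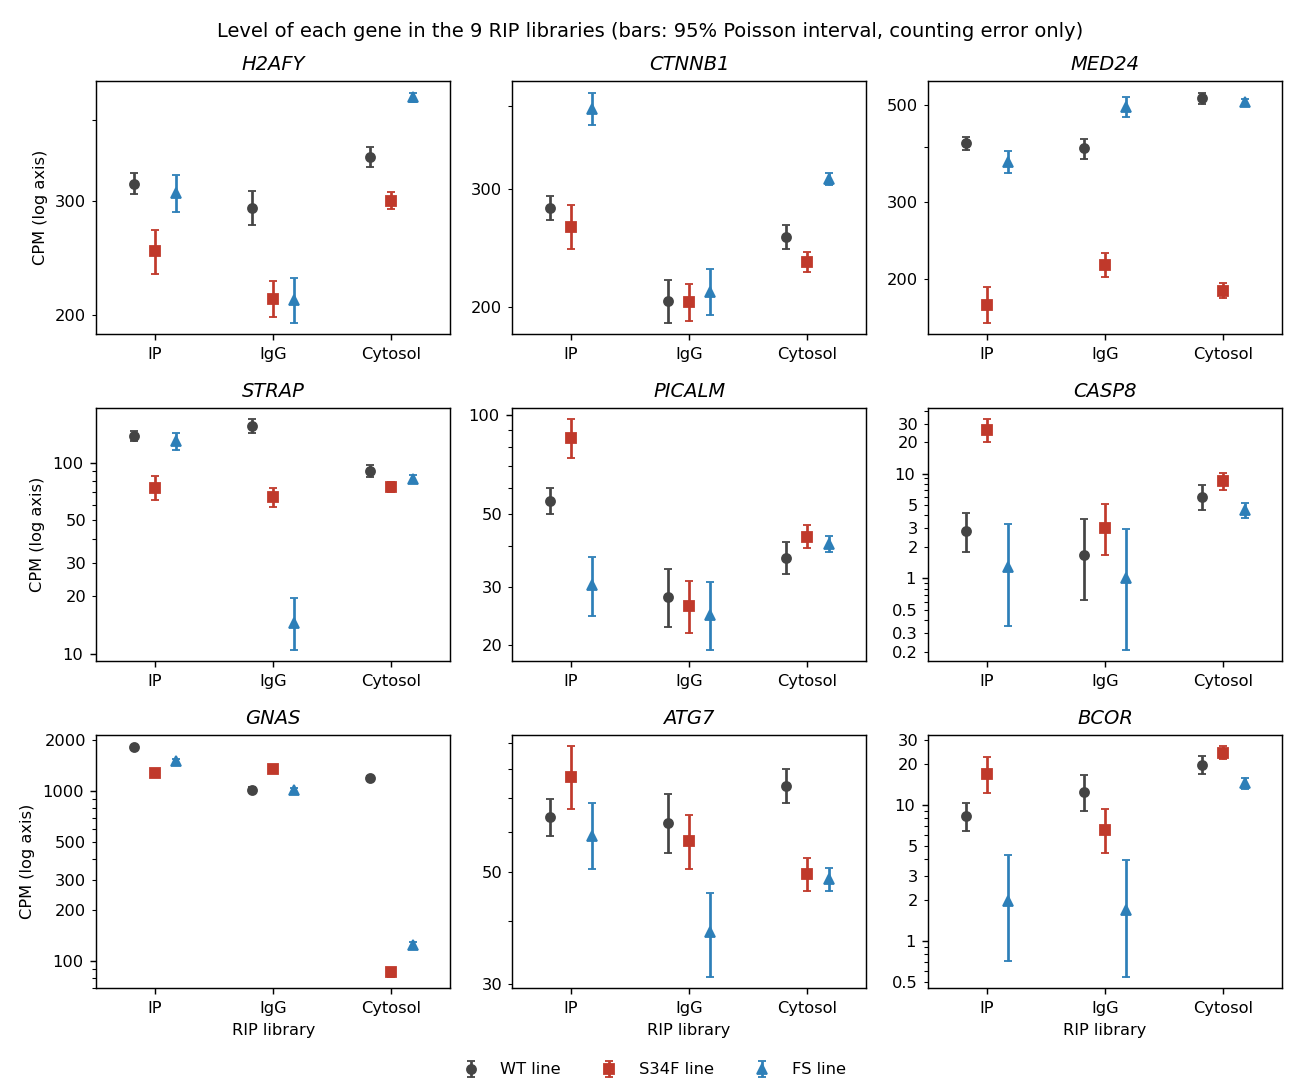
Level of each of the 9 genes in CPM (vertical axis, log scale) in the IP, IgG and Cytosol libraries of the WT, S34F and FS lines, 1 library per point, with 95% Poisson intervals. GNAS is low in S34F and FS Cytosol, STRAP in FS IgG, and MED24 is lower in S34F in all 3 kinds of library.

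GNAS came closest to a call. It stood at 1809.4, 1278.3 and 1496.4 CPM in the WT, S34F and FS IP, at 1020.1, 1343.3 and 1010.5 in IgG, and at 1200.7, 86.3 and 125.3 in Cytosol. The S34F and FS Cytosol libraries thus stood 13.8 and 9.51 times below WT Cytosol (of CPM + 1), below the other 7 libraries. As log2 ratios to WT Cytosol these were -3.78 in S34F and -3.25 in FS, lower than for all but 0.258% and 0.517% of genes. At the looser limit of -1 or less lay 6.35% of genes in S34F and 9.18% in FS. Between IP and IgG the log2 fold change was 0.18 ± 0.50 (edgeR adjusted p = 0.924). The log2 fold change was 2.38 ± 0.58 for IP against Cytosol (SE; edgeR adjusted p = 0.107) and 2.20 ± 0.59 for IgG against Cytosol (adjusted p = 0.17). The former passed with another low-count filter (adjusted p = 0.0462) and without a filter (7.03e-32), and without the WT line both passed, at 3.71 (adjusted p = 6.75e-07) and 3.62 (3.83e-07). In polysomes of the same lines GNAS averaged 860.7, 655.7 and 971.8 CPM in the WT, S34F and FS lines. The log2 ratio of Cytosol to polysome mean was 0.48 in WT, -2.91 in S34F and -2.94 in FS, at the percentiles 78.6, 3.79 and 8.82 of genes. The antisense gene GNAS-AS1 reached at most 1.97 CPM in polysomes and 1.81 in RIP, and whether counting used strand is not given in the sources used here.

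The other 8 genes were not called, and some stood apart in single libraries. CASP8 stood at 25.9 CPM (67 counts) in S34F IP and at 3.05 in S34F IgG, 2.84 in WT IP, 1.69 in WT IgG, 1.30 in FS IP and 1.01 in FS IgG, the last 2 on 4 and 3 counts. PICALM stood at 85.2 CPM in S34F IP against 26.2 in IgG, at 54.7 against 27.9 in WT and at 30.4 against 24.6 in FS. CTNNB1 stood in IP at 280.9, 263.3 and 395.6 CPM in the WT, S34F and FS lines against 203.7, 202.9 and 210.2. STRAP stood at 14.5 CPM (43 counts) in FS IgG and at 65.8 to 154.7 in the other 5 precipitates. MED24 stood at 408.8, 174.6 and 371.1 CPM in the WT, S34F and FS precipitates with U2AF1 and at 397.9, 215.2 and 494.4 with IgG. H2AFY lay between 210.9 and 318.6 CPM and ATG7 between 38.0 and 77.2 in the 6 precipitates. BCOR had 1.96 and 1.69 CPM in FS IP and IgG (6 and 5 counts) and 6.54 to 16.7 in the other 4. In all, 5 of the 9 (H2AFY, CTNNB1, PICALM, CASP8 and ATG7) were higher in IP than in IgG in 3 of 3 lines. The share of all genes that were so was not measured, and this count is a description. The median log2 ratio over all genes was itself 0.33 in WT, 0.02 in S34F and 0.19 in FS. The ratio of ATG7 in WT was 0.03, and that of CASP8 in FS rested on 4 and 3 counts. In WT the ratio of CTNNB1, 0.46, was above that of 53.9% of genes.

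In the partner lists 1 gene was called in RIP, CDH3, the P-cadherin of basal epithelia, which was lower in IP than in IgG (-1.39 ± 0.25, edgeR adjusted p = 0.0124) and higher in IgG than in Cytosol (1.14 ± 0.25, adjusted p = 0.0454). Of 7 further genes known for altered exon use with S34F, 0 were called in RIP. In the 8-10 fraction, where 28.3% of all genes were called higher, 4 of them were, led by KMT2D, a histone methyltransferase (1.59 ± 0.30), and EIF4A2, a translation helicase (0.97 ± 0.29), and IRAK4, a kinase of innate signalling, was lower (-1.36 ± 0.34). Of 14 factors of the 3-prime splice site 7 were higher there and 0 lower, led by SF3B2 (1.82 ± 0.26) and U2AF1 itself (1.73 ± 0.42).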

How the data were processed

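RNA-seq of polysome fractions (24 libraries) and RIP (9) came from 3 HBEC lines, and PAR-CLIP from Flp-In-293 cells. The authors deposited estimated counts per gene, of which 57.4% (polysome) and 26.2% (RIP) were not whole numbers, and for RIP also RPKM values. Per the file headers, the deposited cluster lists give read counts and a T-to-C conversion fraction per cluster, with replicates pooled. TopHat is named in the submitters' processing notes; its version, the counting tool, strand use and genome build are not given in the sources used here.

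After 28 date-like names (polysome) and 45 and 119 repeated entries were dropped, 21530 and 26334 symbols remained. Expected counts were rounded and filtered by expression (15945 and 11612 genes), scaled by TMM and tested with edgeR 4.0.16 in R 4.3.3 (quasi-likelihood, line as a block, Benjamini-Hochberg). Dispersion gave a coefficient of variation of 32.9% and 69.8%. DESeq2 1.42.0, RLE scaling, no filter, no block, and each line left out were alternatives. Lines share their source across libraries, which is why line was the block: deviations of same-line libraries correlated with a median r of 0.346 over polysome fractions (-0.251 to 0.765) and 0.0643 over RIP (0.0237 to 0.133). Between lines, log2(CPM + 1) ratios were taken with no test, since each line gave 1 library of a kind. A count of 3 corresponded to 0.224 to 1.23 CPM (polysome) and 0.101 to 1.16 CPM (RIP), the limit that a count of 0 allows. Poisson and exact binomial intervals are 95% and cover counting error only. The edgeR script was tested on simulated data. Clusters shared at least 1 base to count as overlapping.

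Named genes were the 9 members, up to 2 called genes per direction and partner list by size of change, and the 2 genes most alike each member. The members and lists were chosen with earlier results of these data known.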

Additional observations from a re-analysis of the deposited data

Results flagged for a closer look

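Opposite directions between lines were found for 3 genes in the RIP libraries, each side at least 0.5 from 0 on the log2(CPM + 1) scale. There is 1 library per line and kind, and none of these differences was tested. The log2 ratio of IgG to Cytosol for STRAP was 0.77 in WT and -2.43 in FS, where the FS IgG library held 43 STRAP counts. The log2 ratio of IP to Cytosol for CASP8 was -0.86 in WT, 1.51 in S34F and -1.25 in FS, with 67 counts in S34F IP and 4 in FS IP. For BCOR the log2 ratio of IP to IgG was -0.55 in WT and 1.23 in S34F.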

How the results depend on the processing

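No called gene of the 9 changed direction under any alternative run, and 14 values of uncalled genes did. For IP against IgG these were BCOR without S34F (-0.56) and STRAP without FS (-0.19), their ranges with 1 line left out reaching 0.81 and 1.35. For IP against Cytosol it was CASP8 with no block (0.68), without WT (0.20) and without FS (0.42), and it was -1.41 without S34F. For IgG against Cytosol they were STRAP with no block (0.07) and without FS (0.45), and ATG7 without S34F (-0.04), with -0.96 for STRAP without WT and 0.11 for ATG7 without FS. Between the 8-10 fraction and monosomes ATG7 was -0.02 with RLE scaling, -0.02 with DESeq2, -0.04 without WT (0.28 without S34F) and -0.16 with fractions pooled. STRAP between 8-10 and 7 ribosomes was -0.01 with no block and -0.24 without S34F (0.50 without WT). The cause was not tested.

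Counts of all genes called in RIP moved more. For IP against IgG, 26 higher and 130 lower became 71 and 281 with no filter, 210 and 426 with DESeq2, and 2 to 20 and 15 to 187 with 1 line left out. For IP against Cytosol, 57 and 5 became 110 and 43 with no filter, 89 and 53 with DESeq2, and 47 to 55 and 1 to 7 with 1 line left out, and 8 were lower with the filter by the whole design, chosen after seeing the data. For IgG against Cytosol, 77 and 2 became 190 and 7 with no filter, 200 and 23 with DESeq2, and 62 to 136 and 0 to 3 with 1 line left out, and 1 was lower with RLE scaling. GNAS made 1 of the 9 called for IP against Cytosol with no filter, with the whole-design filter and without WT, and 1 for IgG against Cytosol with no filter and without WT.

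Without the replicate block, the counts were 0 higher and 32 lower for IP against IgG, 36 and 0 for IP against Cytosol, and 0 lower for IgG against Cytosol. Between the 8-10 fraction and monosomes 2739 of 15945 genes were higher in place of 4519, and 2509 were lower in place of 3439. Of the 9, 3 were then called in place of 7. With 1 line left out, 3140 to 3716 genes were higher and 1939 to 2735 lower, and 4 to 5 of the 9 were called. With fractions pooled 3803 of 15945 genes were higher and 2787 lower, and 3 of the 9 were called. Low counts limit BCOR and CASP8 in RIP and BCOR in the gradients, and PAR-CLIP lists and single lines have no replicates.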
